A study of Drosophila melanogaster with 2 samples.

Results

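Cytosolic ribosomal protein genes encode the proteins that, with ribosomal RNA, build the ribosomes of the cytosol. They were taken as the protein-coding genes whose symbol is RpL or RpS followed by a digit or by P, together with sta, which encodes a protein of the small subunit. On the chromosome arms used, 93 of 13945 protein-coding genes met this rule, 54 for the large subunit, which forms peptide bonds, and 39 for the small subunit, which reads the messenger RNA. Binding was measured by chromatin immunoprecipitation with sequencing (ChIP-seq) for CG17829, the Drosophila homologue of the histone H4 transcription factor HINFP, a zinc finger protein. The samples were whole Drosophila melanogaster embryos, aged 0 to 24 hours and of both sexes, from a transgenic fly line that stably makes CG17829 with GFP fused to its C terminus, and an anti-GFP antibody was used for the precipitation. The labels put both samples in 1 group, biological replicates 4 and 2, which are separate biosamples of 1 donor line. All values therefore describe the tagged protein in the whole embryo, and binding in many cells cannot be told apart from stronger binding in a few. The labels name no driver or promoter for the transgene.

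Ribosomal proteins are needed in nearly equal amounts, and their genes are among the most active in growing cells. In flies many of their promoters start transcription at a pyrimidine-rich TCT initiator in place of the common initiator, and factors such as Dref, which binds the DNA replication-related element (DRE), and M1BP, which binds Motif 1, are known to act at them. Loss of 1 copy of many of these genes gives the Minute phenotype of slow growth and thin bristles. Several fly ribosomal proteins are encoded by duplicated genes, of which one copy is often used mainly in the germline.

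The authors deposited 4 peak lists: 1 for each replicate and 1 from both replicates together, here the pooled list, each of 30000 peaks, and 1 list of 7915 peaks thresholded by the irreproducible discovery rate (IDR), which were the 7915 strongest peaks of the pooled list. Each peak has a summit, its highest point, and a signal value of the authors on a scale that is not stated, so strength is given as the rank of a peak by signal within its list, with 1 the strongest. A promoter summit is a summit within 250 bp of an annotated transcription start site (TSS), and each gene was given its strongest one. The read depth is unknown. With 1 group and no second condition, no test between conditions was possible. Shares have exact 95% Clopper-Pearson intervals, which cover counting error only and treat genes as independent, which they are not.

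The promoters shown here span the range of binding, from the strongest of these genes to copies with no promoter summit in any list. Each runs from 150 bases before the TSS through the first 20 transcribed bases, 5′ to 3′ along the gene's strand, in the dm6 sequence of RefSeq. Capitals mark the letters of the motifs searched: the DRE core TATCGAT, the Motif 1 core GGTCACAC and CGTCCGC, the core of the site of human HINFP, on either strand, and, on the gene's strand at the TSS, the TCT initiator CNTTT and the initiator TCANT. TATCGATA holds the DRE core on both strands. The TSS is the one nearest to the pooled summit or, for copies with none, the one used for the motif counts given later. For sta, RpL36, RpL32 and RpL34b it is not the TSS of those counts, in which sta and RpL36 have a TCT initiator and RpL32 and RpL34b do not.
sta (chrX:1483394-1483563, minus strand): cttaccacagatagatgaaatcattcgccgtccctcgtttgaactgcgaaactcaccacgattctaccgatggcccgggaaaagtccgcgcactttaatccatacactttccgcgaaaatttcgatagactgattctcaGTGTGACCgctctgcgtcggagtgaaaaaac
RpL36 (chrX:629464-629633, minus strand): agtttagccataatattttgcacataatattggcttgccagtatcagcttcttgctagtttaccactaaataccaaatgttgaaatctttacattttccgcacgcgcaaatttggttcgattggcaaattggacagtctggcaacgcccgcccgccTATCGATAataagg
RpL32 (chr3R:30046142-30046311, minus strand): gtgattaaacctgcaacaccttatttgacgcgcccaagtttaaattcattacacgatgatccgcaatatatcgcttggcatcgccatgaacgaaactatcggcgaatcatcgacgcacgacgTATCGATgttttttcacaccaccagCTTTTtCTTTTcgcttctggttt
RpL14 (chr3L:8600856-8601025, plus strand): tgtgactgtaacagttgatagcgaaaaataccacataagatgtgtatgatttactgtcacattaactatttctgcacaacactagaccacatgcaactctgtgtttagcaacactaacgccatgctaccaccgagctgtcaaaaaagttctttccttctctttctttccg
RpL34a (chr3R:26059248-26059417, minus strand): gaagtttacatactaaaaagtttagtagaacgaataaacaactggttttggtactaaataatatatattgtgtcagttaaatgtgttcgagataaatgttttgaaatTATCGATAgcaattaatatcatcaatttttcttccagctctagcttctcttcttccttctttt
RpL34b (chr3R:9401207-9401376, minus strand): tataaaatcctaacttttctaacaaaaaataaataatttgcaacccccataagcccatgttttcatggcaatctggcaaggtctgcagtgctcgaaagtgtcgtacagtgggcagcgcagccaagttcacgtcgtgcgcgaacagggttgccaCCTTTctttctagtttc
RpL10Aa (chr3R:15037216-15037385, plus strand): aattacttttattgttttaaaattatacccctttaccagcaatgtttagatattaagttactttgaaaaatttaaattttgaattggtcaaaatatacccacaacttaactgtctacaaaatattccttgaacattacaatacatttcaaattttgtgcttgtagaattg
RpL10Ab (chr3L:11822701-11822870, plus strand): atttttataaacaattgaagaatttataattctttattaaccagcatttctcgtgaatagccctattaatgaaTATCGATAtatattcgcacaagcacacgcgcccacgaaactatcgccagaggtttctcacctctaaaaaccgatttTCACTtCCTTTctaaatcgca
RpS19a (chrX:16637744-16637913, plus strand): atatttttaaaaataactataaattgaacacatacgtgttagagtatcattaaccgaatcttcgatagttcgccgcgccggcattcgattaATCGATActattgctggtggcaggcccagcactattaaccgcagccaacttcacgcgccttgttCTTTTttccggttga
RpS19b (chr3R:23933511-23933680, minus strand): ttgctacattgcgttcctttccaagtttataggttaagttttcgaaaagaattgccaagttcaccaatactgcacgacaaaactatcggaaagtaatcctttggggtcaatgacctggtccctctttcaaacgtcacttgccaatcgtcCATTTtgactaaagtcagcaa
RpS28a (chr3R:30022629-30022798, minus strand): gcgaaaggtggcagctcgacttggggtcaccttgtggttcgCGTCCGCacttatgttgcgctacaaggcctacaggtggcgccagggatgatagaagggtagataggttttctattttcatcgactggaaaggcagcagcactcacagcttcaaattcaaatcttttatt
RpS28b (chrX:9554473-9554642, plus strand): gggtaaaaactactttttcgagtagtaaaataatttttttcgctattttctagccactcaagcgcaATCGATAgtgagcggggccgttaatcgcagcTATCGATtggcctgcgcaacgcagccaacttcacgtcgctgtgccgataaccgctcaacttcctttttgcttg

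With the TSS counted as 0, the Motif 1 core of sta began at −11 and lay on the minus strand of the gene. The DRE core of RpL36 began at 6, inside the transcribed part, that of RpL32 at −28, and that of RpL34a at −43. RpL34b had a TCT initiator, with its C at 3, and no DRE core in the stretch shown, so the copies of this family, both with strong summits, did not share these letters. RpL10Ab had a DRE core at −77 and a TCT initiator, and RpL10Aa, which had no promoter summit, had none of the capitalised motifs. RpS28b had DRE cores at −84 and −53. RpS28a, whose summit did not reach the IDR list, had the human HINFP core at −109. RpL14, with one of the strongest summits, held none of these motifs as searched in the stretch shown. Its letters CTTTC next to the TSS were not counted, because CNTTT ends in T.

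Nearly all ribosomal protein genes had a summit of CG17829 at their promoter. In the IDR list it was 79 of 93 genes (84.9%, interval 76.0 to 91.5), where 31.7% of all protein-coding genes had one. In the pooled list it was 87 (93.5%), against a background of 48.9%. In the list of replicate 4 it was 85 (91.4%), against 48.5%, and in the list of replicate 2 it was 86 (92.5%), against 49.3%. The share was thus well above the background in each list. A promoter summit in all 4 lists was held by 77 of the 93 genes. The matching count over all protein-coding genes was not made, and its share cannot exceed the 31.7% of the IDR list. No promoter summit in any list was found for 5 genes: RpL10Aa, RpL22-like, RpL37-2, RpS19b and RpS28-like.

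The summits at these genes were of middle to high strength, and few were among the very strongest. The median rank in the pooled list, with genes that lacked a summit counted as last, was 3147 for ribosomal protein genes. Over all protein-coding genes fewer had a summit than lacked one, so that no median rank could be given. A rank of 1000 or better was held by 16 ribosomal protein genes (17.2%), against 4.5% of all protein-coding genes. A rank of 2000 or better was held by 32 (34.4%), against 8.78%. Within the first 500 ranks there were 4 of them (4.30%), against 2.36% of all protein-coding genes. A promoter summit among the 7915 strongest peaks of both replicates was held by 73 (78.5%), against 26.5% of all protein-coding genes.

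**Figure D1:**
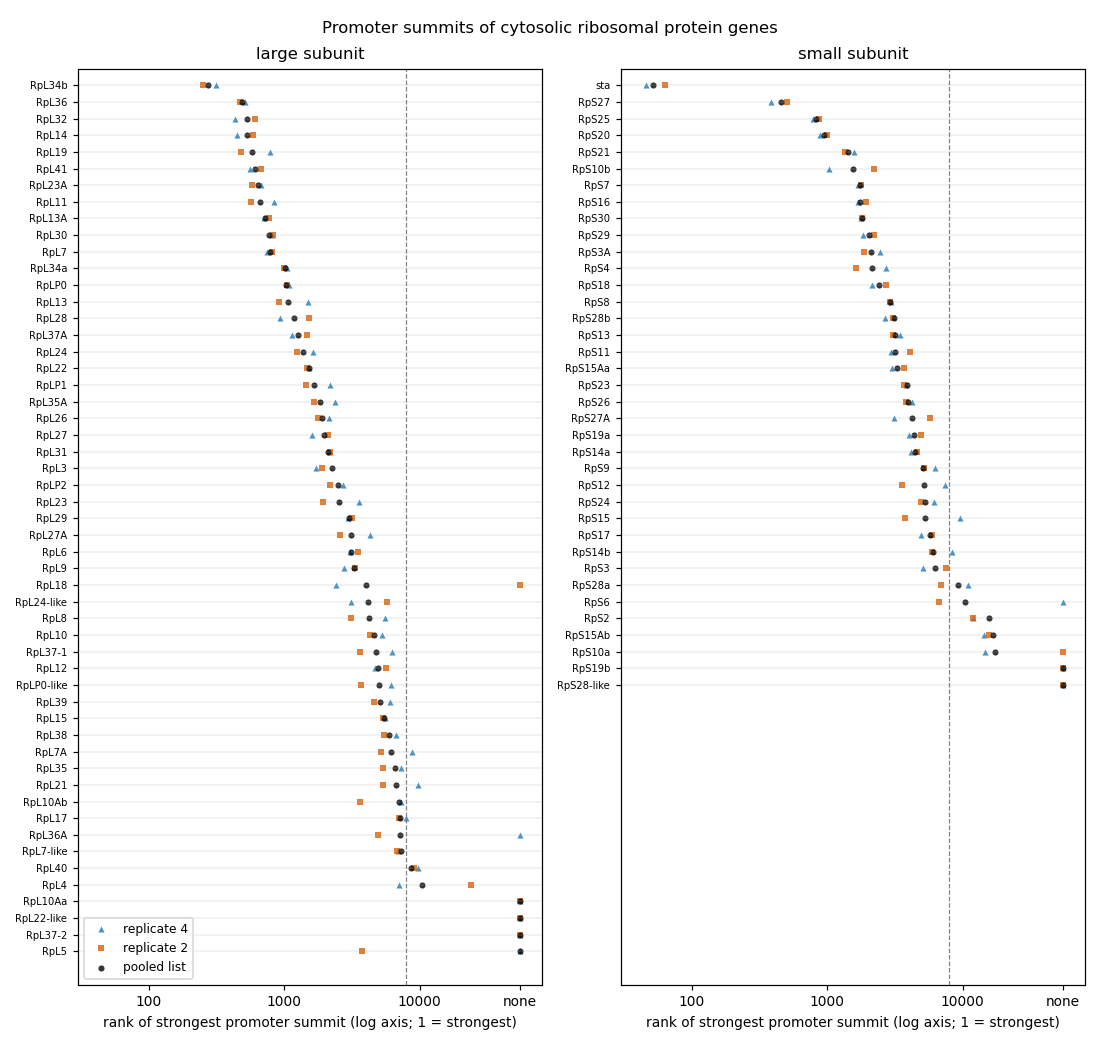
Rank of the strongest promoter summit of each ribosomal protein gene (horizontal log axis, 1 strongest) in the pooled list and in replicates 4 and 2, for large subunit genes (left) and small subunit genes (right). The dashed line is the end of the IDR list at 7915, "none" means no summit within 250 bp of a TSS, and sta stands apart at the strong end.

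The strongest summit belonged to sta, whose protein lies between the head and the body of the small subunit and is the fly homologue of the laminin receptor precursor. Its peak (chrX:1483063-1483592) had rank 52 in the pooled list, 46 in replicate 4 and 63 in replicate 2, with a signal of 1013 in replicate 4 and 1076.9 in replicate 2. The summit lay 42 bp downstream of the TSS of sta and within 250 bp of that of inc, which encodes an adaptor of the Cul3 ubiquitin ligase, and sta was the nearer of the pair. Both replicates thus placed sta ahead of every other ribosomal protein gene.

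RpL34b, for a large subunit protein, came next, with rank 272 in the pooled list, 312 in replicate 4 and 250 in replicate 2 (peak chr3R:9401142-9401595). Its summit lay 145 bp upstream of its own TSS and nearer to the TSS of CG8132, so the peak cannot be given to one gene of the pair. RpS27, which encodes a zinc-binding protein of the small subunit, had rank 454 (382 in replicate 4, 507 in replicate 2; peak chr3R:25247359-25247921) and shared its summit with Nup37, a nuclear pore gene, and with an annotated stable intronic RNA. RpL36, which lies beside the gene of CG17829 on X, had rank 491 (515 in replicate 4, 471 in replicate 2; peak chrX:629220-629797), with the summit 11 bp upstream of its TSS and no other gene start within 250 bp.

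The rest of the strongest 10 were all large subunit genes, and 5 of them are described here. RpL32, a common reference gene in fly expression work, had rank 527 and shared its peak with CG7943. RpL14 had rank 534 and shared its summit, 20 bp upstream of the TSS, with Nelf-E, a subunit of the complex that holds RNA polymerase II in a paused state. RpL19 (rank 578, shared with CG3776) and RpL41 (rank 609, shared with the sodium channel gene NaCP60E) followed. RpL23A, whose product stands at the exit of the peptide tunnel, had rank 640 and its promoter to itself. In replicate 4 these 5 genes ranked between 432 and 785, and in replicate 2 between 478 and 675.

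The ranks of some genes whose products lie together in the ribosome are given here, picked by hand after the values were seen. Of the 5S particle, RpL11 had a summit of rank 663 (843 in replicate 4, 572 in replicate 2), whereas RpL5 had none in the pooled list. In the stalk, which binds the translation factors, RpLP0 had rank 1026, RpLP1 1670 and RpLP2 2490, and RpL12 at the stalk base had rank 4949. Around the tunnel exit RpL19 and RpL23A were followed by RpL26 at 1902, RpL31 at 2090 and RpL35 at 6538. Of the proteins that line the tunnel, RpL39 had rank 5104, RpL17 7112 and RpL4 10377. At the entry of the messenger RNA into the small subunit, RpS30 had rank 1793, RpS3 6253 and RpS2 15644. Both genes that encode a ribosomal protein fused to ubiquitin ranked below the median of 3147, RpS27A at 4214 and RpL40 at 8585. The replicates differed for RpS27A, at 5732 in replicate 2 and at 3128 in replicate 4, where the median was 3042.

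Of the 14 genes outside the IDR list, 9 belonged to duplicated families and 5 were single genes. RpL40 had ranks 8585 in the pooled list, 9782 in replicate 4 and 9124 in replicate 2. Just inside the end of the IDR list were RpL36A at 7152 and RpL7-like at 7255. RpL40 was thus the nearest gene outside, and it was close to the end of the list in both replicates.

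RpS6, whose protein is the best known substrate of S6 kinase, had rank 10334 in the pooled list and 6675 in replicate 2. The nearest summit in replicate 4 lay 434 bp from a TSS of RpS6, so it was not counted. The pooled summit was shared with a pseudogene and a small nucleolar RNA, snoRNA:Or-aca2. The start of either or both of these was nearer to it than that of RpS6. RpL4 had rank 10377 in the pooled list, 7056 in replicate 4 and 23748 in replicate 2, so the replicates gave it very different strengths. RpS2 had rank 15644 in the pooled list, 11894 in replicate 4 and 11994 in replicate 2, and was low in both.

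RpL5 (2L, 22532279 to 22536884), which carries the 5S RNA with RpL11, had a summit in 1 of the 4 lists. Replicate 2 had a summit 7 bp from its TSS with rank 3740. The nearest summit was 286821 bp away in replicate 4 and 286826 bp away in the pooled list. All 32-base words of its promoter occur once in the genome sequence, so no repeated sequence of that length was found there. The sources do not say whether peaks in this stretch of 2L were filtered from some lists, so the missing summits cannot be read as absence of binding at RpL5. RpL18, at rank 3982 in the pooled list and 2407 in replicate 4, had its nearest replicate 2 summit 315 bp away. RpL36A, at 7152 in the pooled list and 4894 in replicate 2, had its nearest replicate 4 summit 420 bp away.

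The replicates ordered these genes in much the same way. Over the 83 genes with a promoter summit in both, the ranks had Spearman's rho 0.926, and the log10 ranks Pearson's r 0.939. These are correlations across genes of the same pair of libraries, given as a description. The median ratio between a gene's ranks was 1.24, and 20 genes differed over 1.5-fold. The largest ratio was 3.37 for RpL4, followed by 2.53 for RpS15, at 9482 in replicate 4 and 3752 in replicate 2. Differences in rank below about 1.5-fold between genes are therefore within what the replicates themselves show. The summits of the replicates lay a median of 23 bp apart, and for 63 genes within 50 bp. For 6090 other protein-coding genes with a summit in both, rho was 0.865 and the median ratio 1.31.

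**Figure D2:**
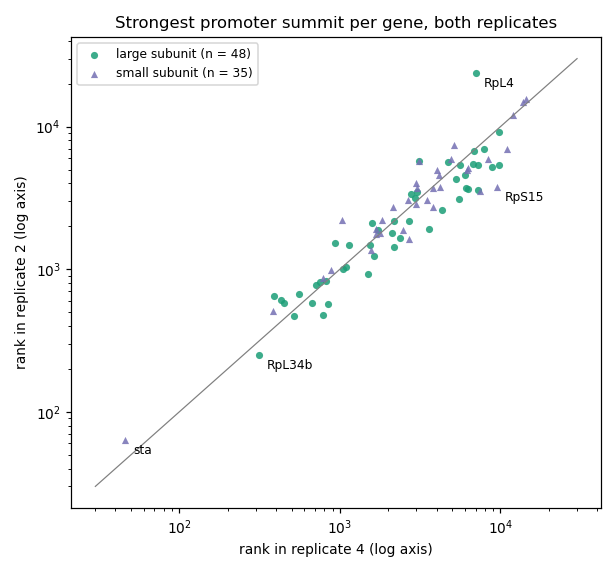
Rank of the strongest promoter summit in replicate 4 (horizontal) and replicate 2 (vertical), both on log axes, for 48 large and 35 small subunit genes with a summit in both replicates. The grey line marks equal ranks; most genes lie close to it, and RpL4 at 7056 and 23748 is the farthest away.

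Large subunit genes had stronger summits than small subunit genes by their median ranks, and the shares with a promoter summit overlapped in their intervals. In the IDR list, 48 of 54 large subunit genes (88.9%, interval 77.4 to 95.8) and 31 of 39 small subunit genes (79.5%, interval 63.5 to 90.7) had a promoter summit, 9.40 percentage points apart. In the pooled list the shares were 92.6% for large and 94.9% for small subunit genes, in replicate 4 they were 90.7% and 92.3%, and in replicate 2 they were 92.6% and 92.3%. The difference in share was thus seen at the IDR threshold and not in the longer lists. Counted in the 7915 strongest peaks of 1 replicate, it was 4.27 points without replicate 4 and 10.8 points without replicate 2. With summits allowed within 1000 bp of a TSS it was 1.71 points (88.9% of large and 87.2% of small subunit genes). The median rank over all members was 2751.5 for large and 3885 for small subunit genes in the pooled list. It was 2732 for large and 3800 for small subunit genes in replicate 4, and 2387.5 for large and 3699 for small in replicate 2. The order of the medians was the same in both replicates. Of the 20 strongest ribosomal protein genes 16 were for the large subunit and 4 for the small, where the large subunit makes up 58.1% of all 93.

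Single genes of the large and small subunits had nearly the same share with a promoter summit. Of the 66, 37 of 40 for the large subunit (92.5%) and 24 of 26 for the small (92.3%) had an IDR promoter summit. In duplicated families it was 11 of 14 for the large subunit (78.6%) and 7 of 13 for the small (53.8%). The median pooled rank of the single genes was 2501.5 for large and 3020.5 for small subunit genes. In replicate 4 it was 2549 for large and 2973 for small, and in replicate 2 it was 2177 for large and 2962.5 for small.

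In most duplicated families 1 copy had an IDR promoter summit and another lacked one. The 13 families held 27 genes, of which 18 (66.7%) had an IDR promoter summit, against 61 of 66 single genes (92.4%). All copies had one in 5 families, part of the copies in 8, and in 0 families did every copy lack it. All 32-base words of the promoter occur once in the genome sequence for every ribosomal protein gene except RpS15Ab, with 88.9% of them found once, and RpL7A and RpL17, with 96.8% each, so the copies of a family differ in promoter sequence.

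The a and b copies of the 5 families described next differed by more than the replicates of either copy. RpS10a had rank 17398 with no promoter summit in replicate 2, and RpS10b had rank 1542 (1027 in replicate 4, 2211 in replicate 2). RpS15Aa had rank 3283 and RpS15Ab 16714. In these pairs the weaker copy ranked 14333 or weaker in every list where it had a summit at all.

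RpS19a had rank 4358 (4037 in replicate 4, 4941 in replicate 2), and the nearest pooled summit to RpS19b, a germline copy, lay 328 bp from its TSS. RpL10Ab had rank 7045 (7257 in replicate 4, 3595 in replicate 2), and no pooled summit lay within 50443 bp of RpL10Aa. RpS28b had rank 3128 and RpS28a 9220, with ranks of 2662 and 10959 in replicate 4 and 3055 and 6943 in replicate 2. The summit of RpS28a was nearer to the TSS of Axn, a scaffold of Wnt signalling, than to its own. The copy with the stronger or only pooled promoter summit was a in RpS15A and RpS19 and b in RpS10, RpL10A and RpS28. Of these copies, RpS19a and RpL10Ab ranked below the median of 3147 for ribosomal protein genes. RpS15Aa, at 3283, lay close to that median, and in replicate 4 its rank of 3017 was near the median of 3042 there.

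In 2 families both a and b were in the IDR list. RpL34a had rank 1010 (1047 in replicate 4, 999 in replicate 2) and RpL34b rank 272, so here both copies had strong promoter summits. That of b was the stronger in both replicates. RpL34a shared its summit with Trmt61, and that of RpL34b lay nearer to the TSS of CG8132, so its rank cannot be given to RpL34b alone. RpS14a and RpS14b stand next to each other on X and had ranks of 4444 and 5984, with 4159 and 8347 in replicate 4 and 4563 and 5939 in replicate 2. The copies of RpS14 were thus alike in rank in the pooled list and in replicate 2, and a was the stronger in each list.

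The copies with names ending in -like or in a number went different ways. RpL24-like (rank 4152), RpL7-like (7255) and RpLP0-like (4979), whose yeast homologues are ribosome assembly factors rather than parts of the ribosome, had IDR promoter summits, and ranked below RpL24 (1366), RpL7 (779) and RpLP0 (1026). All 3 of these summits are shared: that of RpL24-like with CG5276, whose TSS is nearer, that of RpL7-like with CG34164 and JhI-21, and that of RpLP0-like with 14-3-3zeta. RpL22 had rank 1527, and no pooled summit lay within 7343 bp of RpL22-like, which is used in the testis. RpL37-1 had rank 4745, and the nearest pooled summit to RpL37-2 was 8142 bp away. For RpS28-like the nearest pooled summit was 617 bp away. These copies with no pooled promoter summit lacked one in both replicates as well.

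**Figure D3:**
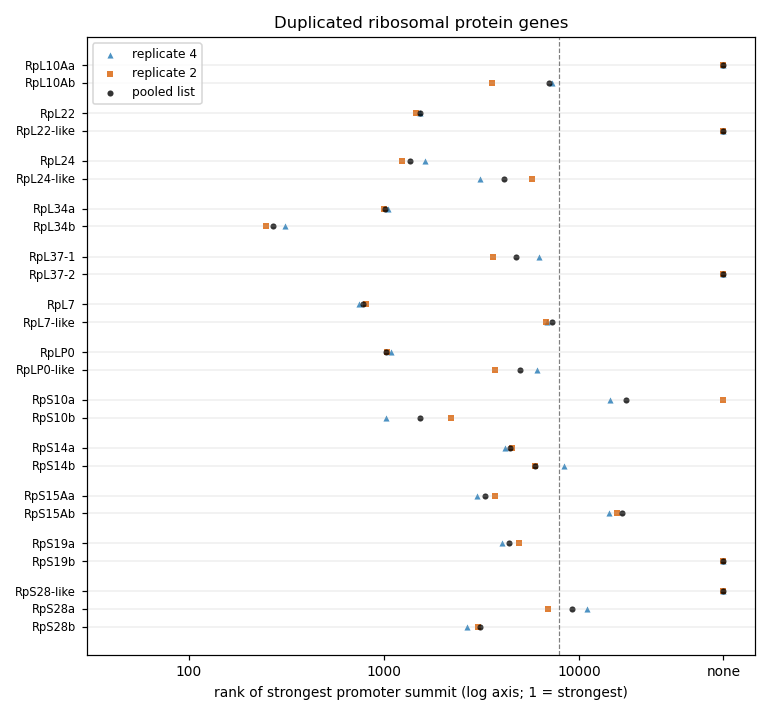
Rank of the strongest promoter summit (horizontal log axis) for genes of duplicated families, grouped by family, in the pooled list and in replicates 4 and 2. The dashed line marks the end of the IDR list at 7915; in most families 1 or more copies lie right of it or at "none".

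The summits lay close to the start sites. In the pooled list the median position at ribosomal protein genes was 35 bp upstream of the TSS (−35 bp), against −70 bp at 6734 other protein-coding genes with a promoter summit and −86 bp at mitochondrial ribosomal protein genes. It was within 50 bp of the TSS at 51 of 87 ribosomal protein genes (58.6%), against 31.4% of the other genes. In replicate 4 the median was −49 bp at ribosomal protein genes against −72 bp at other genes, and in replicate 2 it was −24 bp against −70 bp. These positions are from the nearest annotated TSS of each gene, which favours genes with several. Only 1 TSS was annotated for 48 of 93 ribosomal protein genes, against 10198 of 13852 others. With 1 TSS used per gene, the pooled median at ribosomal protein genes was −50 bp, and no matching value is given for other genes. The replicates differed from each other by about as much as ribosomal protein genes differed from other genes in replicate 4.

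**Figure D4:**
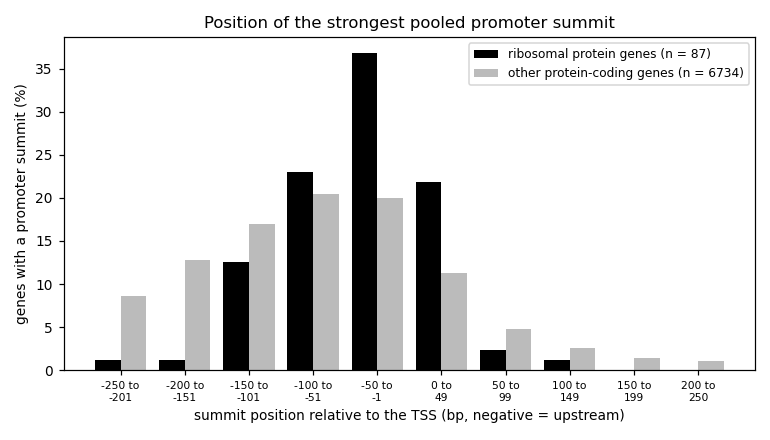
Position of the strongest pooled promoter summit relative to the nearest TSS of the gene, in bins of 50 bp. Bars give the percentage of 87 ribosomal protein genes and of 6734 other protein-coding genes with a promoter summit. The bin just upstream of the TSS holds 36.8% of the ribosomal protein genes; no bin holds over 20.4% of the other genes.

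Most of these summits had the start of 1 gene only within 250 bp. Of the 79 IDR promoter summits, 28 (35.4%) also lay within 250 bp of the TSS of another gene, 23 of them with a gene on the opposite strand, and in 6 the neighbour's TSS was the nearer one. Among other protein-coding genes with an IDR promoter summit the share was 49.2%, and among mitochondrial ribosomal protein genes it was 75.5% (37 of 49). Within 500 bp the share was 54.4% for ribosomal protein genes and 59.7% for other genes. Large subunit genes shared 20 of 48 summits (41.7%) and small subunit genes 8 of 31 (25.8%). The summit of RpL13 lies in the promoter that it shares with Dref, the gene of the DRE-binding factor, with rank 1073, and the TSS of Dref is the nearer. Genes with 1 annotated TSS had an IDR promoter summit in 36 of 48 cases (75%), against 26.2% of other genes with 1 TSS. Those with 2 TSSs had one in 28 of 29 cases (96.6%), against 42.7%, and those with 3 or more in 15 of 16 (93.8%), against 52.1%. The share was above that of other genes at each number of start sites.

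The TCT initiator, searched as CNTTT, and the DRE core were found in a larger share of these promoters than of other promoters. The initiator TCANT was found in a smaller share. Motifs were searched from 250 bp before to 50 bp after 1 TSS per gene, and each match describes letters, not a site in use. The TCT initiator, with its C within 5 bp of the TSS, was found in 34 of 93 ribosomal protein genes (36.6%), against 4.11% of mitochondrial ribosomal protein genes and 7.00% of all other protein-coding genes. With any annotated TSS allowed it was 49.5%, against 5.48% and 9.92%. The letters CNTTT are not the full pyrimidine-rich motif: they take in CATTT at RpS19b and leave out CTTTC at RpL14. All shares and splits by the TCT initiator given here describe CNTTT only. The initiator TCANT was found in 7.53% of ribosomal protein genes and 16.8% of other genes, and TATAAA, starting 40 to 20 bp before the TSS, in 1.08% and 7.96%.

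The DRE core was found in 37 of 93 ribosomal protein genes (39.8%), against 32.9% of mitochondrial ribosomal protein genes and 17.5% of other genes. The Motif 1 core was found in 14 (15.1%), against 11.0% and 7.49%. The E-box CAGCTG was found in 9.68% of ribosomal protein genes, against 54.8% of mitochondrial ribosomal protein genes and 18.0% of other genes. GAGAGAG was found in 0 of 93 (interval to 3.89%), against 6.24% of other genes. The human HINFP core CGTCCGC was in 1 of 93 promoters, that of RpS28a, against 1.88% of other genes (interval for the ribosomal protein genes 0.0272 to 5.85).

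Set beside other genes that had an IDR promoter summit, some of these differences were smaller. The DRE core was in 41.8% of the 79 ribosomal protein genes with such a summit (interval 30.8 to 53.4), against 31.2% of 4337 other genes with one. The Motif 1 core was in 16.5% against 14.7%. The TCT initiator was in 35.4% against 6.82%, and the E-box in 7.59% against 24.0%. TATAAA was in 1.27% against 1.91%. The initiator TCANT was in 8.86% (interval 3.64 to 17.4) against 13.5%, which lies inside that interval.

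**Figure D5:**
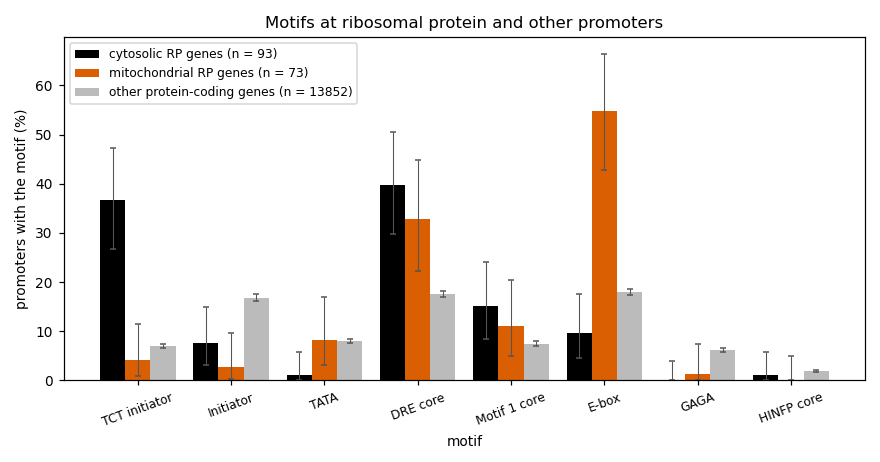
Percentage of promoters with each motif in 93 cytosolic ribosomal protein (RP) genes, 73 mitochondrial RP genes and 13852 other protein-coding genes, with exact 95% Clopper-Pearson intervals as error bars. The TCT initiator, searched as CNTTT, stands at 36.6% in cytosolic RP genes against 7.00% in other genes, and the E-box at 9.68% against 18.0%.

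Within the ribosomal protein genes an IDR promoter summit was common with and without these letters. An IDR promoter summit was present in 33 of 37 genes with the DRE core (89.2%) and in 46 of 56 without it (82.1%). Among other protein-coding genes the shares were 55.8% with it and 26.1% without. It was present in 28 of 34 genes with the TCT initiator (82.4%) and in 51 of 59 without it (86.4%). It was present in 13 of 14 genes with the Motif 1 core (92.9%) and in 66 of 79 without it (83.5%). The median pooled rank was 2535 with the Motif 1 core and 3283 without it, 3128 with the DRE core and 3223 without it, and 3215 with the TCT initiator and 3142 without it.

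Within 50 bp of the summit itself, the DRE core was found at 22 of 79 ribosomal protein summits (27.8%, interval 18.3 to 39.1), against 13.7% of 3289 other promoter summits. The Motif 1 core was found at 10.1% against 5.66%. The human HINFP core was found at 0 of 79 (interval to 4.56%), against 0.760% of the others, so a difference in this motif was not detectable at this number of genes.

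In the IDR list, genes that work with ribosomes had shares between the background of 31.7% and the share of the ribosomal protein genes. Of 10 matched genes for translation elongation and termination, 7 had an IDR promoter summit (70.0%, interval 34.8 to 93.3). That interval includes the 84.9% of the ribosomal protein genes. The strongest were eEF1gamma at rank 665, eRF3 at 1167 and eRF1 at 1617, and eEF1beta (8202), eEF1delta (9855) and eEF1alpha2 (9950) lay outside the IDR list. Of 48 ribosome assembly genes 32 had one (66.7%, interval 51.6 to 79.6), led by Ns2, a nucleostemin-family GTPase, at rank 203, eIF6, which keeps the subunits apart, at 215, and l(3)72Dn at 746. Of the factors known at ribosomal protein promoters, M1BP had rank 426, Dref 1073, pzg 1242 and Trf2, a TBP relative that acts at TCT promoters, 7688. Myc, a driver of growth, had pooled rank 9476 and no IDR summit. Of 73 mitochondrial ribosomal protein genes 49 had an IDR promoter summit (67.1%, interval 55.1 to 77.7). In the longer lists their share was close to that of the cytosolic genes. It was 89.0% against 93.5% in the pooled list, 86.3% against 91.4% in replicate 4 and 90.4% against 92.5% in replicate 2.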

How the data were processed

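Per the labels, both samples are ChIP-seq libraries of the same tagged line. Per the deposited provenance notes, each replicate list and the pooled list came from read alignments and a control alignment in the dm6 assembly; the IDR list was made from those. The software for alignment and peak calling is not given in the sources. Signal values are the authors' deposited ones and served only to rank peaks within a list. Peak starts, ends and summit offsets are other deposited values, positions in bp with no normalization. Gene starts came from Ensembl 115 (BDGP6.54, dm6 coordinates) and sequence from RefSeq, on arms 2L, 2R, 3L, 3R, 4 and X, with 18164 genes of all types. Python 3.11.15, pandas 2.3.3, scipy 1.17.1 and matplotlib 3.10.9 were used. The summit assignment and motif search were tested on simulated data.

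The members and gene lists were chosen with earlier results of these data known, so no test was run over them. Of the listed symbols, 2 of 12 for elongation, 9 of 57 for assembly and 2 of 7 for promoter factors matched no gene and were left out. Named by rule were genes outside the IDR list, the 10 strongest, duplicated genes, sta, the 3 strongest of each list, members outside the IDR list where these were 5 or fewer, and neighbours sharing their promoters. A few of these genes are counted but not reported singly here, in text or figures. Other genes were named after their values were seen. Alternatives varied the TSS distance, the start sites used, the strength threshold, the replicates and the motif window. Reads and signal tracks were not analysed here.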

Additional observations from a re-analysis of the deposited data

How the results depend on the processing

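Of 53 alternatives, 41 left a value within the replicate spread, its interval or 1.5 times the count, 12 moved one and 0 turned its direction. The shorter motif window could not change the shares of the TCT initiator, TCANT and TATAAA, which were searched at fixed positions from the TSS. Counts and shares have no direction to turn. The share of large minus small subunit genes was −2.28 points in the full pooled list and −1.57 in that of replicate 4, which were not among these alternatives. In the strongest 50% of the IDR peaks, 52 of 93 ribosomal protein genes kept a promoter summit (17.2% of all protein-coding genes did), and the large subunit led the small by 3.56 percentage points. That difference was 1.71 points within 1000 bp of a TSS, 4.27 within 500 bp, 4.56 with each summit given to its nearest TSS and 4.13 within 100 bp, where 69 ribosomal protein genes were counted against a background of 18.2%. With partners allowed up to 500 bp away, 54.4% of the summits were shared. Counted in the strongest peaks of 1 replicate alone, 75 to 81 genes had a promoter summit and the subunits differed by 4.27 to 10.8 points. The mitochondrial list fell to 22 of 73 and the assembly list to 17 of 48 within 100 bp. No paired analysis was possible because there is 1 group. The unknown read depth limits how weak summits such as those of RpS2 or RpL4 can be read.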

Other observations

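Short words common at these summits were picked after the values were seen, so their shares describe this set and were not tested. CCGGAA, on either strand within 50 bp of the summit, was found at 16 of 79 ribosomal protein summits (20.3%), against 2.10% of 3289 other promoter summits. The longer ACCGGAAA was found at 9 (11.4%), against 0.395%. These were the summits of RpL14, RpL27, RpL39, RpL7A, RpL9, RpS12, RpS18, RpS19a and RpS3A. AAAGAA was found at 31.6% against 12.3%, and AGTGTG at 25.3% against 11.3%.

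By chromosome arm, all 14 ribosomal protein genes on 3L had an IDR promoter summit, against 32% of other genes there, as did RpS3A, the only one on chromosome 4, which had rank 2112. The share was 93.3% of 15 genes on X, against 28.3% of other genes, and 85.7% of 21 on 2R, against 31.5%. It was 78.9% of 19 on 2L, against 31.8%, and 73.9% of 23 on 3R, against 32.3%. Over all protein-coding genes, 16 had a promoter summit among the 7915 strongest peaks of both replicates and none in the pooled list, and 0 of these were ribosomal protein genes.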
